A study of Homo sapiens with 18 samples.

Results

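NCI-H1299, a line of human lung cancer cells, was given a plasmid for TBX3, and the 3 resulting RNA-seq libraries were compared with the 6 pooled control libraries of the same series, 3 made with the empty vector (EV) and another 3 labelled Ctl. These 9 of 18 libraries were taken by their labels, without use of any measured value. The remaining 9 libraries, 3 each for TBX2, TBX4 and TBX5, entered where TBX3 was set against another plasmid. The count table lists 63677 genes, of which 15576 exceeded 5 counts in 10 or more of the 18 libraries and were tested. All plasmids were introduced transiently with a lipid reagent. TBX3 was the human gene with an HA tag in the pCGN plasmid, TBX5 was the mouse gene with the same tag and plasmid, and TBX2 and TBX4 were human genes with a Flag tag in another plasmid. The study took the RNA from its transfection experiments, which ran over several times and in which the reagent alone or an empty vector served as control. Which of these times applied to the libraries, which empty plasmid EV was and what Ctl cells received is not spelled out for them in the sources used here. Gene, tag, plasmid and amount of transcript therefore cannot be told apart where TBX3 is compared with TBX2 or TBX4, nor gene, species and amount where it is compared with TBX5.

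T-box proteins are transcription factors that bind DNA through a shared domain, the T-box. TBX3 and its close relative TBX2 are known chiefly as repressors, with cell-cycle inhibitor genes such as CDKN2A and CDKN1A among their known targets, whereas TBX4 and TBX5 are known chiefly as activators. All 4 genes are active in the developing lung.

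Libraries held 7365221 to 11743179 counts, and the 3 TBX3 libraries 8812923 to 10771902. A single gene without a symbol, ENSG00000266658, took 10.7% to 53.5% of the counts of a library, and 10.7% (replicate 3), 38.5% (replicate 1) and 47.4% (replicate 2) in the TBX3 libraries. All levels below are CPM, read counts relative to the library's own total after TMM scaling, and values for TBX3 libraries are listed in the order of replicates 1, 2 and 3. One library has a title that begins like those for TBX4 and names TBX5 at its end, and it was placed with TBX4. It held 85197 counts of the TBX4 gene and 1 of TBX5, whereas the TBX5 libraries held 8 to 18 of TBX4 and 1161 to 1302 of TBX5. The TBX5 plasmid carried the mouse gene and reads were aligned to the human genome, so these TBX5 counts may miss part of its transcript. Markers of lung epithelium (7 genes), fibroblasts (4), endothelium (2) and leukocytes (3) were at 9 counts or fewer in each of the 9 libraries, and none was tested, with SFTPA1 and SCGB1A1 at 0. EPCAM, CDH1 and KRT19 were likewise at 3 counts or fewer, whereas KRT8, KRT18, VIM, CDH2, FN1 and ZEB1 were measured well above that. EV and Ctl libraries differed from each other in 29 genes (21 higher and 8 lower in EV), among them DDIT3, SREBF1, INSIG1 and SCD. No label says that replicates came from separate cultures, so p-values measure the spread between these libraries, which may be technical.

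TBX3 itself (ENSG00000135111, chr12:115108060-115121980 in GRCh37) reached 17745, 25411 and 22559 CPM in the TBX3 libraries, or 1.54% to 2.98% of their counts, against 1.37 to 3.33 CPM in the 6 controls. Reads of the plasmid and of the cell's own gene are counted together. By the study's methods only some of the cells took up a plasmid. The RNA came from whole cultures, so a change in few cells and a smaller change in all cells cannot be told apart. Low levels of T-box genes were also found outside their own libraries. The TBX3 gene had 6.57 to 6.85 CPM in the TBX4 libraries and 7.74 to 13.2 CPM in the TBX5 libraries, both up-regulated against controls. The TBX4 gene had 0.917, 1.51 and 0.422 CPM in the TBX3 libraries, where the 6 controls held at most 1 count. TBX2 was at 2.62, 4.83 and 4.15 CPM against 3.07 to 4.83 CPM in controls, a log2 fold change of 0.02 ± 0.18 (SE). None of these levels came near that of TBX3 in its own libraries. Each in its own libraries, TBX3 had 135416 to 320890 counts, TBX2 27704 to 47916 and TBX4 85197 to 109159. Whether amount bears on the differences between plasmids was not tested.

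At a false-discovery rate (FDR) of 0.1, by the quasi-likelihood test of edgeR with p-values adjusted after Benjamini and Hochberg, TBX3 up-regulated 1319 genes (8.47% of those tested) and down-regulated 997 (6.4%), together 14.9%. Against the same controls TBX2 up-regulated 17% and down-regulated 15.6% of the tested genes, TBX4 6.97% and 6.07%, and TBX5 6.55% and 6.12%. Most changes were small. Differentially expressed genes (DEGs) had a median absolute log2 fold change of 0.31, and 65 up-regulated and 22 down-regulated genes reached an absolute value of 1. All 3 TBX3 libraries lay above all 6 controls for 1305 genes (8.38%) and below them for 957 (6.14%), called or not. The balance of the directions depended on the scaling: with library totals counted without the most counted gene in place of TMM, 867 genes were up-regulated and 1709 down-regulated, while the median of all genes shifted by -0.06. The difference between TBX3 and each of the other plasmids was then tested directly, in 1 fit of all 18 libraries. TBX3 differed from TBX2 in 2417 genes (15.5%), from TBX4 in 1553 (9.97%) and from TBX5 in 1154 (7.41%).

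A gene was called particular to TBX3 only when it passed the test against controls and all 3 of these direct differences with the same sign. This held for 173 up-regulated genes (1.11% of those tested) and 22 down-regulated genes (0.141%). The numbers were 89 and 28 with library totals counted without the most counted gene, 4 and 0 with all library totals, and 104 and 12 without TBX3 replicate 2. A far larger number, 506 up-regulated and 274 down-regulated genes, were DEGs with TBX3 and not DEGs in the same direction with any other plasmid, but of these 145 and 21 passed all 3 direct tests. Of the particular genes, 149 up-regulated and 12 down-regulated genes had all 3 TBX3 libraries beyond all other 15 libraries of the series. Of the up-regulated genes 13, TBX3 included, had a log2 fold change of 1 or more, and 1 down-regulated gene had one of -1 or less. In at least 1 of the other 3 groups, 40 of the up-regulated and 4 of the down-regulated genes were DEGs in the opposite direction. The genes were picked by these tests, so the values given for them below describe the selection and add no evidence to it.

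**Figure D1:**
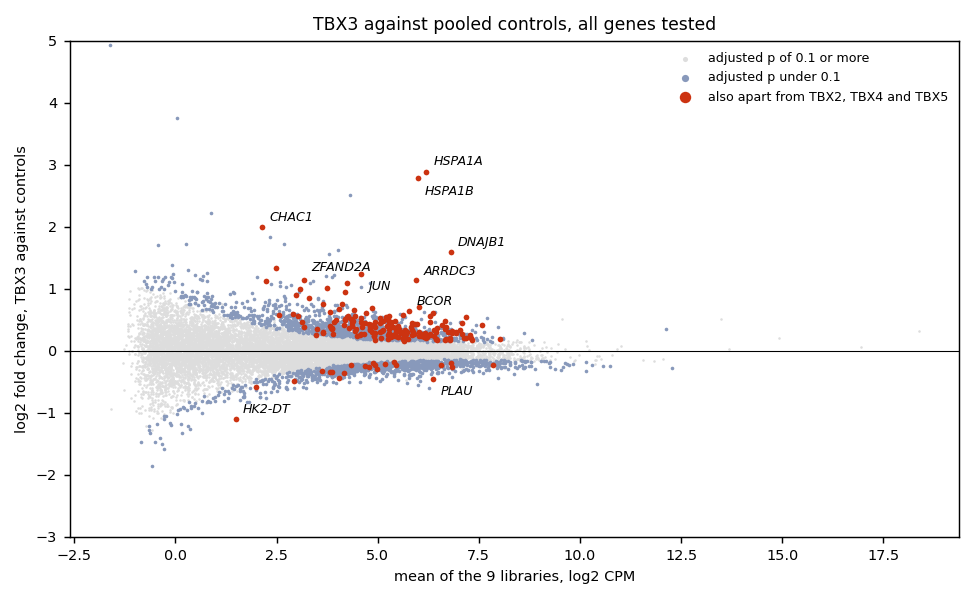
Log2 fold change of TBX3 against the 6 controls (vertical axis) for each tested gene other than TBX3, against its mean level over the 9 libraries in log2 CPM (horizontal axis). Grey points have an adjusted p of 0.1 or more, blue points an adjusted p under 0.1, and red points also passed the direct tests against TBX2, TBX4 and TBX5. HSPA1A, HSPA1B and DNAJB1 stand above the red points of like level.

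Heat shock genes gave 3 of the 4 largest increases among the genes particular to TBX3, apart from TBX3 itself. These genes encode chaperones and their helpers, which keep other proteins folded, and are known to be switched on by the factor HSF1 when unfolded proteins build up. HSF1 binds heat shock elements, inverted repeats of the unit GAA, in the promoters of its targets. Of 25 listed heat shock genes 23 were tested, and TBX3 up-regulated 10 (43.5%, against 8.47% of all tested genes) and down-regulated 0 of these. The median log2 fold change was 0.14 over the list against -0.00 over all tested genes. With TBX2, TBX4 and TBX5 the list had 1, 4 and 2 up-regulated and 7, 1 and 2 down-regulated members. Over all tested genes these plasmids up-regulated 17%, 6.97% and 6.55% and down-regulated 15.6%, 6.07% and 6.12%. Of all tested genes 1.11% were particular to TBX3 and up-regulated, and among them were 7 of the 23 heat shock genes. These were HSPA1A, HSPA1B, DNAJB1, HSPB1, BAG3, CHORDC1 and HSPH1. SERPINH1 and ZFAND2A, which also have a known heat shock response, are not on the list and were picked after their values were seen.

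The promoters of 5 of these genes are shown because they hold the element that HSF1 is known to bind. Each is the stretch of 150 bases just before a RefSeq transcription start in GRCh38.p14, written 5′ to 3′ on the strand of the gene, and capitals mark 2 inverted units of the element, spelled GAANNTTC or TTCNNGAA. The stretches lie at chr6:31815393-31815542 (HSPA1A, + strand), chr6:31827588-31827737 (HSPA1B, + strand), chr19:14518398-14518547 (the second of 3 starts of DNAJB1, - strand), chr11:90223050-90223199 (CHORDC1, - strand) and chr11:75562103-75562252 (the first of 2 starts of SERPINH1, + strand).
HSPA1A: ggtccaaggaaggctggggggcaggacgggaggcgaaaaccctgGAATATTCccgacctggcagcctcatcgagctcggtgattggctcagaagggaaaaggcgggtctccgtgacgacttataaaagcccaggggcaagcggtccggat
HSPA1B: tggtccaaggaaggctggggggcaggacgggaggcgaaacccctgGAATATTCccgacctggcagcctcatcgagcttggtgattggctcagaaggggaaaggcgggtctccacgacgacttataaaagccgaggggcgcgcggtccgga
DNAJB1: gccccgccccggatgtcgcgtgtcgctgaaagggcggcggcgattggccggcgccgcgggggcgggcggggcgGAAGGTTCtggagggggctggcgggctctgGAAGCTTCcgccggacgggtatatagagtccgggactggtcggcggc
CHORDC1: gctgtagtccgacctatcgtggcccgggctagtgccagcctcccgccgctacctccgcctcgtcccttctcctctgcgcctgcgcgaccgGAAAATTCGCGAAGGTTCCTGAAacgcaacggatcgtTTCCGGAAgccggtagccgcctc
SERPINH1: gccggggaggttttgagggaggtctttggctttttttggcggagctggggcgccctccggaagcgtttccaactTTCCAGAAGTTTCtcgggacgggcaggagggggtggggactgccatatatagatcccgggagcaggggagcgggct
The capitals form a single block in HSPA1A and in HSPA1B, with the same letters in both, and separate blocks in DNAJB1. Those of SERPINH1 run together into a longer array. CHORDC1 has a longer array followed by a separate block. The stretches taken by the same rule for HSPH1, BAG3, HSPB1 and ZFAND2A, which are not printed, hold no such pair of units. Nor do those at the other starts of DNAJB1 and SERPINH1.

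HSPA1A (ENSG00000204389, chr6:31783320-31785723 in GRCh37), the main stress-inducible HSP70, rose to 136, 205 and 177 CPM, from 19.6 to 25.9 CPM in the 6 controls. Its range was 19.8 to 26.4 CPM with TBX2, 28.0 to 29.8 CPM with TBX4 and 23.9 to 29.2 CPM with TBX5. The groups did not overlap, and the log2 fold change against controls was 2.88 ± 0.09 (SE, edgeR, adjusted p = 1.2e-17), or 7.37-fold. Its near-identical neighbour HSPA1B (chr6:31795515-31798031) stood at 122, 170 and 152 CPM against 19.9 to 24.2 CPM (2.78 ± 0.08, adjusted p = 1.31e-18). Reads that both copies could have given make the split between them uncertain, as does the 36.6% of HSPA1B exon length that other genes overlap. DNAJB1, the HSP40 partner that delivers clients to HSP70, had 174, 223 and 209 CPM against 65.7 to 68.5 CPM in controls (1.60 ± 0.06, adjusted p = 9.03e-16). Its range over the 9 libraries of the other plasmids was 57.8 to 69.0 CPM.

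Smaller rises were seen in other members of the chaperone system. BAG3, a co-chaperone that guides clients to autophagy, was at 39.7, 38.3 and 37.5 CPM against 20.9 to 26.7 CPM, and the small heat shock protein gene HSPB1 at 84.9, 104 and 73.0 CPM against 46.8 to 57.1 CPM. Their log2 fold changes were 0.69 ± 0.07 (adjusted p = 9.93e-07) and 0.71 ± 0.08 (adjusted p = 2.7e-06) in edgeR. CHORDC1, an HSP90 co-chaperone, rose by 0.57, HSPH1, the HSP110 that exchanges the nucleotide of HSP70, by 0.54, and SERPINH1, the collagen chaperone of the endoplasmic reticulum, by 0.53 on the log2 scale. ZFAND2A, a proteasome-associated gene, rose by 1.14, from 5.29 to 7.74 CPM in controls to 12.8, 14.9 and 14.7 CPM. For all 9 genes each TBX3 library lay above each control. ZFAND2A was also up-regulated by TBX2 (0.69), from which TBX3 differed by 0.46 (adjusted p = 0.0188), HSPB1 by TBX5 (0.33), from which it differed by 0.38 (adjusted p = 0.0532), and HSPA1A and HSPA1B by TBX4 (0.30 and 0.20). In the tests run with another filter, tool, scaling or correction, or without 1 library, the 9 genes stayed up-regulated and particular, except for scaling by library totals (4 up-regulated, 3 particular) and for HSPB1, which did not stay particular at an FDR of 0.05, without TBX3 replicate 2 or without TBX5 replicate 1.

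**Figure D2:**
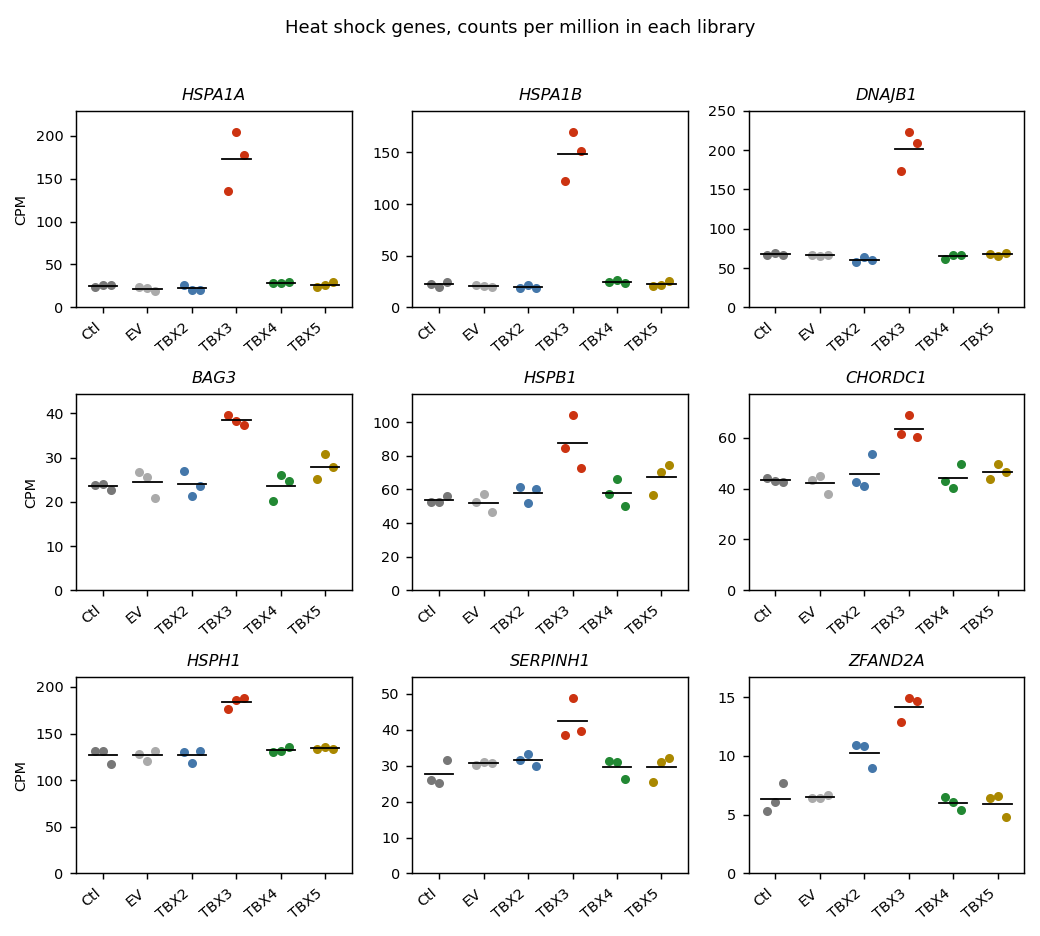
CPM of 9 heat shock genes in each of the 18 libraries (points, by group of 3) with the mean of each group (black line), each panel with an axis of its own that starts at 0. The 3 TBX3 libraries lie above all 15 others in each panel except HSPB1, where replicate 3 (73.0 CPM) lies within the range of TBX5 (up to 74.4 CPM).

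Several abundant chaperone genes, picked after their values were seen, did not pass the test. HSPA8, the constitutive HSP70, was at 2108, 2176 and 2098 CPM against 1872 to 2091 CPM (log2 fold change 0.07, adjusted p = 0.572), and HSP90AA1 at 2042, 2105 and 1732 CPM against 1654 to 2054 CPM (0.03, adjusted p = 0.856). HSP90AB1 (-0.09), the mitochondrial chaperonin HSPD1 (-0.07) and HSF1 itself (-0.09) did not pass the test either. Beside the particular genes the list held 3 more up-regulated members, HSPA1L (1.22), DNAJB4 (0.35) and FKBP4 (0.17). HSPA1L was also up-regulated by TBX4 and TBX5, and DNAJB4 by TBX2 (0.41) and TBX4 (0.24). The call of DNAJB4 was lost against Ctl alone and that of FKBP4 in 9 alternatives, besides library totals in both. Over all RefSeq promoters (windows from 250 bases before to 50 after a start, both strands searched), 13.5% of 35116 held a pair of heat shock units. The share was 10.6% of the 15625 windows of tested genes, of which only 10735 of 15576 were matched. It was 16.5% of 243 windows for the genes particular to TBX3 and higher, of which 147 of 173 were matched, and 4.55% of 22 windows for those that were lower, of which 19 of 22 were matched. Among the listed heat shock genes, 5 of 7 particular genes and 8 of 12 matched genes that did not pass the test had a pair of units in a window. The pair GAANNTTC followed by 2 further bases and GAA, an element of 3 units, was found for 1 of these 7 and for 6 of these 12. The T-box half-site AGGTGTGA was in 0.980% of all windows, in 1 of the 243 windows and in none of the 22, and in no window of the 7 heat shock genes. These matches of letters in a window are a description and were not tied to binding.

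Immediate-early genes, which encode short-lived transcription factors induced within minutes of a stimulus, rose as a broader group. Of 28 tested, 17 were up-regulated and none down-regulated by TBX3 (60.7% of the list, against 8.47% of all genes up-regulated), with a median log2 fold change of 0.48. TBX2, TBX4 and TBX5 up-regulated 11, 8 and 10 and down-regulated 4, 2 and 4, with medians of 0.26, 0.02 and 0.29. Of all tested genes they up-regulated 17%, 6.97% and 6.55% and down-regulated 15.6%, 6.07% and 6.12%. The median of EV minus Ctl on this list was 0.21, and against EV alone TBX3 had a median of 0.54, with 13 genes up-regulated and 1 down-regulated. JUN, the AP-1 subunit, went from 13.4 to 21.4 CPM in controls to 35.6, 45.7 and 35.9 CPM (1.24 ± 0.11, edgeR adjusted p = 4.09e-08). It was also up-regulated by TBX2 (0.78), and TBX3 exceeded TBX2 by 0.46 (adjusted p = 0.00387). CSRNP1, JUNB, IER2 and MYC were the other listed genes particular to TBX3, with log2 fold changes of 1.34, 0.95, 0.62 and 0.18. CSRNP1 was also up-regulated by TBX2 (0.77) and TBX5 (0.60), and JUNB by TBX2 (0.64) and TBX4 (0.48). Other genes overlap 52.2% of the exon length of IER2, and MYC, at 121, 122 and 119 CPM against 95.4 to 118 CPM, lost its call in 9 alternatives besides library totals.

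The genes of this group with the largest changes were shared with other plasmids. EGR1, a zinc finger factor of the growth response, was at 39.4, 55.2 and 38.5 CPM with TBX3 and at 5.15 to 12.7 CPM in controls (2.51 ± 0.17, edgeR adjusted p = 1.54e-10). It was higher still with TBX2, at 72.3 to 106 CPM, and the difference of TBX3 from TBX2 was -0.94 (adjusted p = 5.87e-05). FOSB (2.22) was up-regulated by all 4 plasmids and was lower with TBX3 than with each of the others, by 0.60 to 1.28 on the log2 scale. FOS rose by 1.83 and did not pass the test of difference from TBX2 or TBX5. ATF3, a stress-induced repressor, stood at 9.57, 14.8 and 11.9 CPM against 2.40 to 4.94 CPM. It rose by 1.71 with TBX3 and by 1.74 with TBX2, and the values of 0.01 for TBX4 and 0.28 for TBX5 did not pass. Phosphatases and Sprouty proteins that damp MAP kinase signalling had 6 of 18 tested genes up-regulated (33.3%, against 8.47% of all tested genes) and 0 down-regulated. TBX2, TBX4 and TBX5 up-regulated 0, 3 and 2 and down-regulated 4, 4 and 2. For all tested genes these shares were 17%, 6.97% and 6.55% up-regulated and 15.6%, 6.07% and 6.12% down-regulated. Without TBX3 replicate 3, 2 genes of this list were called with TBX3. DUSP1 (11.9, 15.4 and 14.9 CPM against 5.65 to 10.4 CPM, 0.85) and DUSP5 (29.5, 31.5 and 35.5 CPM against 22.6 to 30.8 CPM, 0.33) were particular to TBX3. DUSP5 was down-regulated by TBX2 (-0.26) and TBX4 (-0.27), and its rise with TBX3 missed the threshold against EV alone and without TBX3 replicate 3. SPRY4 (0.46) was also up-regulated by TBX4 and TBX5.

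The integrated stress response, in which the factors ATF4 and DDIT3 act on amino acid shortage or protein misfolding, and the unfolded protein response of the endoplasmic reticulum were counted as 1 list of 34 tested genes. TBX3 up-regulated 18 and down-regulated 2 of them (58.8% called, against 14.9% of all tested genes). TBX2, TBX4 and TBX5 up-regulated 27, 9 and 9 and down-regulated 0, 1 and 4. Their shares over all tested genes were 17%, 6.97% and 6.55% up-regulated and 15.6%, 6.07% and 6.12% down-regulated. The median of the list was 0.24 for TBX3 against the pooled controls, 0.25 for EV minus Ctl and 0.15 for TBX3 against EV alone. CHAC1, a glutathione-degrading target of ATF4, was the up-regulated member particular to TBX3, at 6.95, 10.6 and 9.07 CPM against 1.49 to 3.01 CPM in controls (2.00 ± 0.18, edgeR adjusted p = 4.12e-08). It was also up-regulated by TBX2 (1.44) and stood at -0.23 with TBX4 and -0.48 with TBX5, neither past the test. DDIT3, also known as CHOP, had 24.1, 32.3 and 31.4 CPM against 6.27 to 13.3 CPM (1.63), with 39.6% of its exon length overlapped by other genes. It was higher in EV than in Ctl (0.96, adjusted p = 0.000871), and TBX2 raised it further than TBX3 did (difference -0.39, adjusted p = 0.0156). SESN2, a stress-induced brake on growth signalling, was at 20.8, 30.9 and 23.2 CPM against 5.69 to 10.5 CPM (1.56). ATF4 rose by 0.27, a call lost without TBX3 replicate 2. HSPA5, the chaperone of the endoplasmic reticulum, rose by 0.27 with TBX3, a call lost in 9 alternatives besides library totals, and by 1.00 with TBX2. HSP90B1, the HSP90 of the same compartment, had -0.05 with TBX3, while TBX2, TBX4 and TBX5 raised it by 0.20 to 0.30 against the pooled controls. Its controls lay apart, at 333 to 373 CPM in EV and 287 to 305 CPM in Ctl (0.27, edgeR adjusted p = 0.189). It was at 316, 330 and 305 CPM with TBX3, 346 to 424 CPM with TBX2, 374 to 388 CPM with TBX4 and 383 to 421 CPM with TBX5. The disulfide isomerase gene PDIA4 was particular in the other direction, at 86.1, 90.1 and 79.6 CPM against 88.9 to 110 CPM (-0.23, adjusted p = 0.0322), with overlapping libraries. Its fall missed the threshold against Ctl alone and without TBX3 replicate 3. Against EV alone, or without TBX3 replicate 3, 13 genes of the list were called in place of 20.

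**Figure D3:**
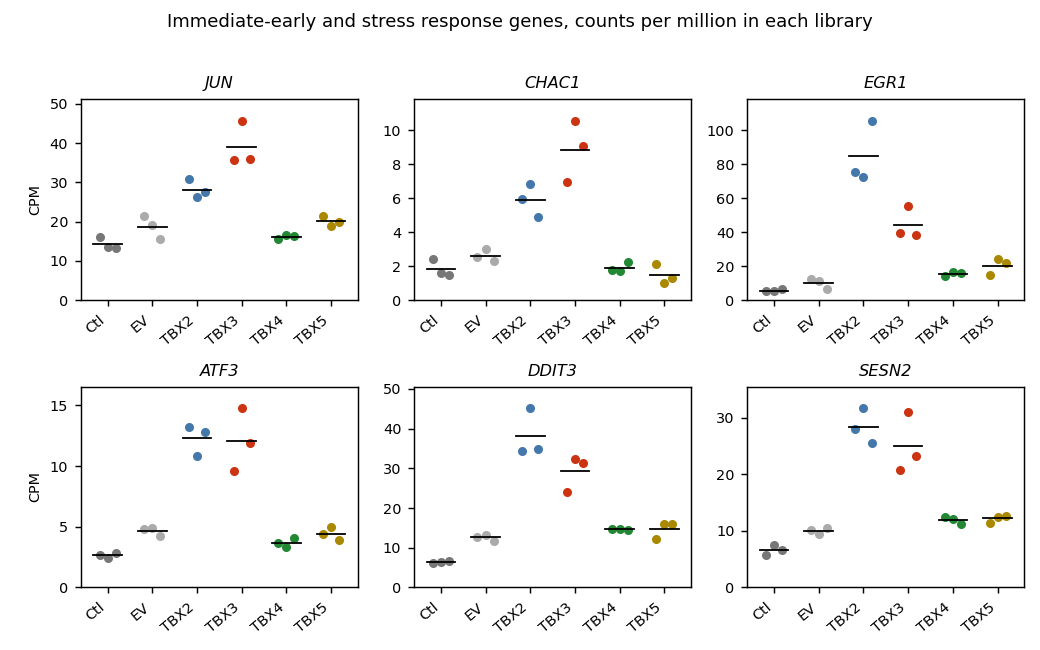
CPM of 3 immediate-early genes (JUN, EGR1, ATF3) and 3 stress response genes (CHAC1, DDIT3, SESN2) in each of the 18 libraries, points by group of 3 with the mean as a black line and axes that start at 0. JUN and CHAC1 were highest with TBX3, while EGR1 and DDIT3 were higher with TBX2.

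Several genes particular to TBX3 encode regulators of chromatin. BCOR was named by rule, and KMT2E, KMT2C, EP300, SETD5 and SETD2 were picked after their values were seen, with no count behind them as a group. BCOR, a corepressor of a variant Polycomb complex, was at 74.3, 78.4 and 64.7 CPM against 42.5 to 50.1 CPM in controls (0.64 ± 0.07, edgeR adjusted p = 8.01e-07). The other 3 plasmids left it between 42.6 and 50.8 CPM, all inside or near the controls' range. KMT2E (99.5, 118 and 84.9 CPM against 58.3 to 74.0 CPM) and KMT2C (158, 177 and 162 CPM against 115 to 127 CPM) belong to a family of histone methyltransferases and rose by 0.56 and 0.45. KDM6A, a histone demethylase that counters Polycomb marks, and the acetyltransferase gene EP300 rose by 0.39 and 0.40. SETD5, SETD2, a histone methyltransferase of transcribed genes, and TET3, an enzyme that oxidises methylated cytosine, rose by 0.29, 0.24 and 0.31. SETD2 was down-regulated by TBX4 and TBX5, by 0.19 in each. On the list of histone lysine demethylases TBX3 up-regulated 9 of 16 tested genes (56.25%, against 8.47% of all tested genes) and down-regulated 0. It was 8, 4 and 6 up-regulated with TBX2, TBX4 and TBX5, which up-regulated 17%, 6.97% and 6.55% of all tested genes. KDM7A (1.11) and KDM6B (1.09) had the largest changes on this list and were up-regulated by all 4 plasmids. KDM6B passed none of the tests of difference between TBX3 and another plasmid. With library totals counted without the most counted gene, 4 demethylase genes were called.

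Zinc finger genes, of which many on chromosome 19 encode KRAB repressors, were the most numerous named family. TBX3 up-regulated 139 and down-regulated 6 of 454 tested ZNF genes (31.9% called, against 14.9% of all tested genes). The median log2 fold change was 0.18 over the family. TBX2 up-regulated 169, TBX4 96 and TBX5 90, with medians of 0.17, 0.12 and 0.14. The same 3 plasmids up-regulated 17%, 6.97% and 6.55% of all tested genes, and TBX3 8.47%. Without TBX3 replicate 3, 92 ZNF genes were called higher and 3 lower with TBX3. Particular to TBX3 and up-regulated were 20 of the 454 ZNF genes, against 1.11% of all tested genes. Of the 173 particular up-regulated genes 17 (9.83%) were ZNF or ZFP genes of chromosome 19. Such genes made up 1.68% of all tested genes, 6.90% of all genes up-regulated by TBX3 and 0.301% of those down-regulated. ZNF570 had 28.8, 31.1 and 28.5 CPM against 12.5 to 15.2 CPM in controls (1.08 ± 0.08, edgeR adjusted p = 1.2e-09), and 16.4 to 24.6 CPM with the other plasmids, which also raised it. ZNF461 (1.01), which all 4 plasmids up-regulated, ZNF699 (0.76) and ZFP30 (0.60) rose as well. ZNF566 and ZNF45 moved in opposite directions, rising by 0.39 and 0.33 with TBX3 and falling by 0.33 and 0.36 with TBX2. ZNF45 was at 93.7, 90.8 and 105 CPM against 65.5 to 85.0 CPM in controls and did not overlap them, whereas ZNF566 overlapped and lost its call without TBX3 replicate 3. Exon length was greater among the up-regulated genes. The median exon length was 6201.5 bases for genes up-regulated by TBX3 and 6758 for the particular ones among them. It was 4796 for genes down-regulated by TBX3 and 4848 for all tested genes. Median GC content was 44.2% for genes up-regulated by TBX3, 49.3% for those down-regulated and 46.9% for all tested genes. With the correction for exon length, 158 particular up-regulated genes were found, 154 of them among the 173. With that for GC content 185 were found, 165 of them among the 173. Against controls, 1262 genes were then up-regulated and 1148 down-regulated.

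Further genes particular to TBX3 belonged to no single list. DACT1, a modulator of Wnt signalling, was at 9.30, 11.5 and 13.2 CPM against 4.94 to 7.54 CPM (0.89 ± 0.13, edgeR adjusted p = 8.82e-05), and stood at -0.24 and -0.39 with TBX4 and TBX5, neither past the test. ZC3H12A, an endonuclease that destroys cytokine messenger RNA, was at 6.95, 8.30 and 7.17 CPM against 2.84 to 4.28 CPM (1.13). ARRDC3, an arrestin-like adaptor, rose from 41.6 to 46.9 CPM to 89.0, 105 and 98.8 CPM (1.13), with rises of 0.62 to 0.90 in the other groups. LATS2, a kinase of the Hippo pathway, was at 32.8, 34.1 and 35.1 CPM against 20.3 to 24.3 CPM (0.60) and was not called with any other plasmid. PPM1D, a phosphatase of the DNA damage response, rose by 0.67, from 12.0 to 15.5 CPM to 21.0, 25.5 and 19.5 CPM. The adaptor gene GAREM1 (0.60), ANKRD33B (0.58), RGS3 (0.39), a regulator of G-protein signalling, and GMEB1 (0.37) were among the genes with the widest gaps from the other plasmids. RGS3 was down-regulated by TBX5 (-0.48) and GMEB1 by TBX2 (-0.28). Against EV alone RGS3 and GMEB1 missed the threshold, as did ANKRD33B against Ctl alone and RGS3 without TBX3 replicate 3. NEAT1, a long noncoding RNA of nuclear paraspeckles, and the factor gene FOXO3 rose by 0.41 and 0.32.

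The 22 down-regulated genes that passed all 3 direct tests mostly changed little, with a median log2 fold change of -0.27. HK2-DT, a noncoding RNA divergent to the hexokinase gene HK2, had the largest fall, to 1.18, 1.21 and 2.04 CPM from 3.06 to 4.00 CPM (-1.10 ± 0.22, edgeR adjusted p = 0.00185). HS3ST3A1, a heparan sulfate sulfotransferase, was at 5.77, 6.19 and 6.19 CPM against 7.37 to 10.0 CPM (-0.49), a call lost against Ctl alone. PLAU, the urokinase-type plasminogen activator, was at 66.3, 62.6 and 70.1 CPM against 80.6 to 106 CPM (-0.46 ± 0.07, adjusted p = 0.000242), and TBX2 also lowered it, by 0.24. Other genes overlap 31.0% of its exon length. The chemokine gene CXCL2 went apart from all others: it had 25.6, 27.5 and 28.4 CPM with TBX3 against 27.7 to 36.6 CPM in controls, and 38.4 to 62.2 CPM with the other plasmids, each of which up-regulated it. Its differences from TBX2, TBX4 and TBX5 were -0.88, -0.70 and -0.82, while the fall against controls (-0.23, adjusted p = 0.0649) was lost in 7 alternatives besides library totals. NLRP3, an inflammasome sensor, fell by 0.58, with 66.0% of its exon length overlapped by other genes and a call that was lost against Ctl alone, without TBX3 replicate 1 or 3 and without EV replicate 3. EIF2D, IFT27, FHOD1 and RPS27 fell by 0.26, 0.32, 0.34 and 0.24, and each lost its call in 1 to 3 alternatives besides library totals.

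The converse set, genes that TBX2, TBX4 and TBX5 all moved and TBX3 did not, with direct differences in all 3 tests, held 39 up-regulated genes (0.25% of those tested) and 47 down-regulated genes (0.302%). Some of the latter belong to sterol and fatty acid synthesis. Of 32 tested genes of that list 24, 21 and 20 were down-regulated by TBX2, TBX4 and TBX5, and 11 (34.4%) by TBX3, with none up-regulated by any plasmid. Of all tested genes TBX2, TBX4 and TBX5 down-regulated 15.6%, 6.07% and 6.12%, and TBX3 6.4%. The medians of the list were -0.49, -0.35 and -0.42 with TBX2, TBX4 and TBX5, against -0.22 with TBX3. Of the 32 genes 6 were among the 47, against 0.302% of all tested genes. These 6 included HMGCS1, IDI1 and SQLE, enzymes of cholesterol synthesis, and SREBF1 and SREBF2, the factors that switch the pathway on.

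HMGCS1 was at 54.4, 54.0 and 58.0 CPM with TBX3 and at 47.6 to 57.3 CPM in controls, but at 30.8 to 39.6 CPM in the 9 libraries of the other plasmids. TBX3 exceeded TBX2, TBX4 and TBX5 by 0.61, 0.66 and 0.64 (edgeR adjusted p = 1.94e-05, 8.91e-06 and 3.25e-05), and 37.7% of HMGCS1 exon length overlaps other genes. SQLE, at 81.2, 85.2 and 80.1 CPM against 75.0 to 88.4 CPM, had a fold change of -0.00 and exceeded the other groups by 0.23 to 0.37. SREBF1 needs its controls apart. It was at 103 to 113 CPM in Ctl and 65.8 to 73.3 CPM in EV, and at 76.1, 77.4 and 69.7 CPM with TBX3, while the other plasmids had 31.0 to 54.0 CPM. TBX3 was thus lower than Ctl alone (-0.53, adjusted p = 4.8e-05) and did not pass against the pooled controls (-0.25, adjusted p = 0.235), and EV was itself lower than Ctl (-0.62, adjusted p = 4.13e-05). IDI1 (-0.22) did not pass against the pooled controls but was called lower in 9 alternatives, among them Ctl alone (-0.36, adjusted p = 0.00562). INSIG1, a sterol-sensing brake on the pathway, was down-regulated by TBX3 (-0.38) and further by the others (-1.09 to -1.14). Down-regulation by TBX3 was also found for FDPS (-0.44), LSS (-0.42), FASN (-0.37) and SCD (-0.27), where the calls of INSIG1, SCD and FASN were lost against EV alone. With EV alone as controls 5 genes of the list were called, with DESeq2 6, and without TBX3 replicate 3 it was 7.

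**Figure D4:**
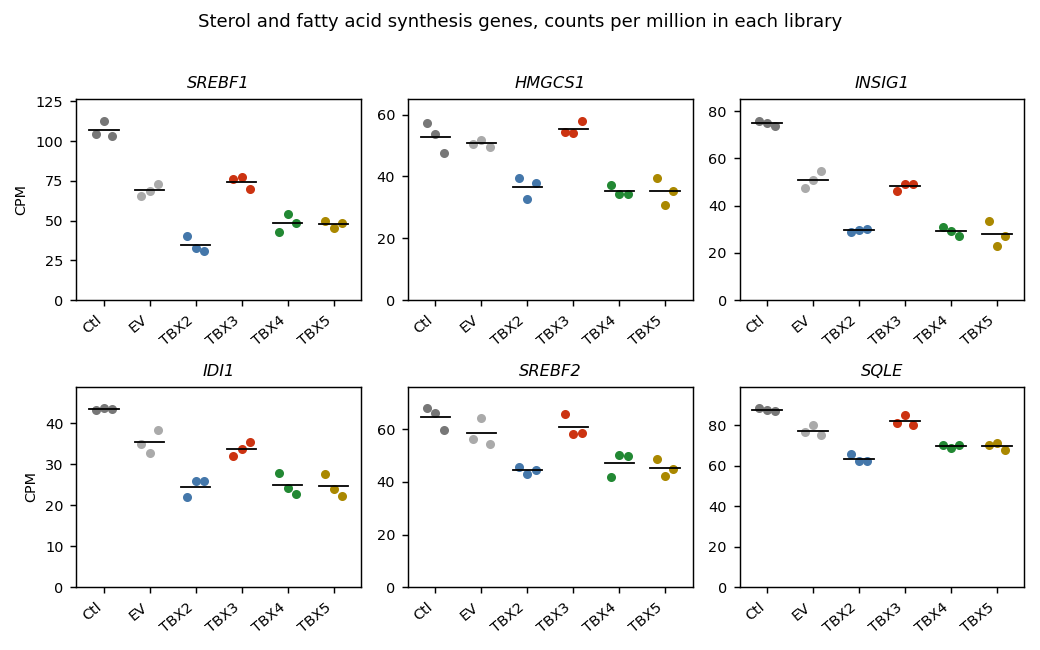
CPM of 6 sterol and fatty acid synthesis genes in each of the 18 libraries, points by group of 3 with the mean as a black line and axes that start at 0. Each TBX3 library lies above all 9 libraries of TBX2, TBX4 and TBX5 in each panel.

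Among the 39 genes raised by the other 3 plasmids and not by TBX3, VWA5A, which encodes a von Willebrand factor A domain protein, was at 1.18, 2.87 and 2.46 CPM with TBX3 and 2.16 to 3.20 CPM in controls, against 7.54 to 12.5 CPM with the other plasmids. TBX3 was lower than each by 1.90 to 2.34 on the log2 scale. DHRS2, a dehydrogenase of the mitochondrion and nucleus, was at 6.29, 4.38 and 4.78 CPM against 2.65 to 5.15 CPM, and at 8.21 to 45.7 CPM with the others. The axonemal genes CFAP54 and DNAH7 were up-regulated by 1.20 to 2.67 with the others and had values of -0.48 and 0.42 with TBX3, at or below 4.85 CPM. OVGP1, with 1.44, 1.51 and 0.914 CPM against 0.571 to 0.784 CPM, passed the threshold when TBX3 replicate 3 was left out. FN1, the fibronectin gene, was raised by 0.41 to 0.50 with the others and had 0.11 with TBX3.

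Several lists of growth and cell division genes held members down-regulated by TBX3. Over all tested genes the down-regulated share was 6.4% with TBX3, and 15.6%, 6.07% and 6.12% with TBX2, TBX4 and TBX5. With TBX3 it was 48.1% for histones, 27.3% for mitosis, 17.8% for DNA replication, 38.3% for cytoplasmic ribosomal proteins and 29.3% for the respiratory chain. Among replication-dependent histones 13 of 27 tested genes were down-regulated and 0 up-regulated, with a median of -0.19 (H3C12, -0.50, of whose exon length 40.3% overlaps other genes, and H2BC18, -0.41), against 22, 8 and 17 down-regulated with TBX2, TBX4 and TBX5. Mitosis and spindle genes had 12 of 44 down-regulated (28, 11 and 19 with the other plasmids in the same order), among them CDK1 at 59.9, 46.5 and 65.4 CPM against 67.3 to 81.4 CPM (-0.36), and 6 against EV alone or 7 without TBX3 replicate 1. DNA replication genes had 8 of 45 (24, 7 and 14 with the others), with LIG1 at -0.41, and 3 without TBX3 replicate 2. Cytoplasmic ribosomal proteins had 31 of 81 down-regulated (RPL41, -0.33), against 46, 5 and 12 with TBX2, TBX4 and TBX5. The number with TBX3 ran from 13 against Ctl alone to 60 with library totals counted without the most counted gene, and was 15, 16 and 52 without TBX3 replicate 1, 2 and 3. The nuclear-encoded respiratory chain had 24 of 82 (UQCRFS1, -0.36), against 31, 3 and 10 with the other plasmids, with 42 under that scaling and 15 and 14 without TBX3 replicate 1 and 2. The glycolytic gene ENO1 (-0.32), the receptor gene AXL, at 395, 350 and 377 CPM against 507 to 576 CPM (-0.54), and the arginine methyltransferase gene PRMT1 (-0.35) were down-regulated by TBX3. So were the keratin genes KRT8 (-0.45) and KRT18 (-0.41) and the intermediate filament gene VIM (-0.24). Of the 4 mesenchymal markers VIM, CDH2, FN1 and ZEB1, 1 was up-regulated and 1 down-regulated by TBX3, with a median of 0.06. AXL was also down-regulated by TBX2 (-0.87), TBX4 (-0.61) and TBX5 (-0.65). TBX3 exceeded TBX2 in AXL by 0.33 (edgeR adjusted p = 0.00177) and did not pass the test of difference from TBX4 or TBX5. ENO1 was down-regulated by TBX2 (-0.52) and TBX5 (-0.31) as well. KRT8 was up-regulated by TBX5 (0.26), and TBX3 differed from TBX5 by -0.71 (edgeR adjusted p = 4.39e-05).

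**Figure D5:**
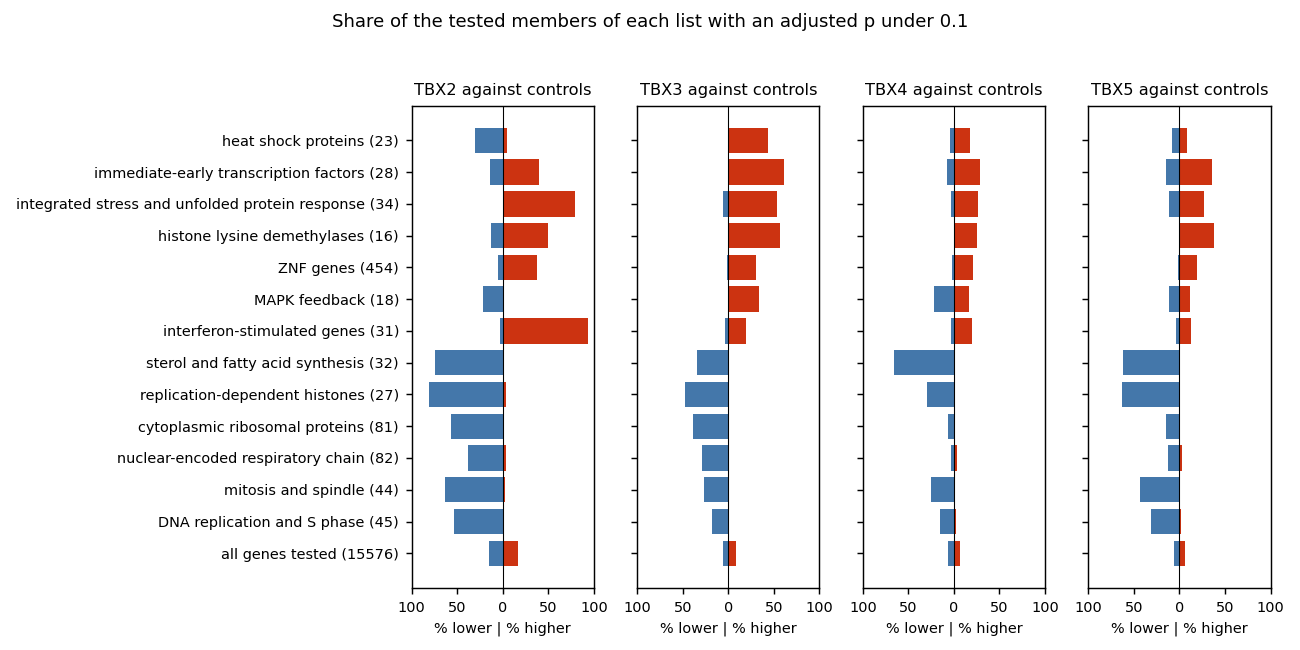
Share of the tested members of 13 gene lists, and of all tested genes, with an adjusted p under 0.1 against controls: down-regulated to the left (blue) and up-regulated to the right (red), in percent, with the number tested in brackets and 1 panel for each plasmid, all against the same 6 controls. Heat shock proteins extend to the right with TBX3 and mostly to the left with TBX2, and the bar of sterol synthesis is shorter with TBX3 than with the other plasmids.

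Genes known as targets of TBX3 were listed as well. CDKN1A, the p21 gene, was at 14.5, 19.3 and 17.9 CPM against 11.4 to 18.2 CPM (0.21, edgeR adjusted p = 0.346), and was called higher against Ctl alone (0.50, adjusted p = 0.0125). EV was at 16.8 to 18.2 CPM and Ctl at 11.4 to 13.1 CPM. TBX2, TBX4 and TBX5 up-regulated CDKN1A against the pooled controls, by 0.39, 0.50 and 0.82. CDKN2A, which encodes p16, was at 27.9, 27.6 and 24.0 CPM against 24.7 to 32.0 CPM (-0.08), and CDKN2B had 0.05. TBX2 (-0.35) and TBX5 (-0.33) down-regulated CDKN2A. CDH1, also on this list, was not tested at 2 counts or fewer in each of the 9 libraries. Of the 7 listed targets 4 were tested and none was called in edgeR with TBX3 against the pooled controls. These are too few genes to set against the 14.9% of all tested genes that were called. The feedback genes TNFAIP3 (25.6, 22.9 and 25.2 CPM against 9.52 to 12.2 CPM, 1.23), SMAD7 (1.02) and SKIL (0.63) were up-regulated by TBX3. Each was also up-regulated by at least 1 other plasmid. Interferon-stimulated genes had 6 of 31 up-regulated with TBX3, against 29, 6 and 4 with TBX2, TBX4 and TBX5, and 2 when TBX3 was compared with EV alone. Over all tested genes the up-regulated share was 8.47% with TBX3, and 17%, 6.97% and 6.55% with TBX2, TBX4 and TBX5. IFIT2 rose by 1.06 with TBX3, a call lost against EV alone, with DESeq2 and without TBX3 replicate 2. It had 1.78 to 9.71 CPM over the 6 controls and was higher in EV than in Ctl (2.14).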

How the data were processed

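The authors deposited 1 table of raw read counts per Ensembl gene for 18 libraries, made from paired-end reads aligned to GRCh37 with STAR 2.3.0 and counted with featureCounts at default settings, which are not stated to use strand. Libraries were grouped by the number in their titles. The log2 fold changes come from edgeR 4.0.16 (R 4.3.3): TMM scaling, the quasi-likelihood test, and Benjamini-Hochberg adjustment over 15576 genes at an FDR of 0.1. TBX3 against controls was fitted on its 9 libraries, and differences between plasmids on all 18 libraries, with no covariates. The fits were tested on simulated data. CPM are TMM-scaled, a count of 3 in a library corresponding to 0.191 to 0.594 CPM, and levels were not compared between genes. The letters of the titles share only a letter, so the main fits hold no block.

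The members, gene lists and tests were chosen with earlier results of these data known. By rule, named genes were the T-box genes, the 12 largest changes in each direction with libraries beyond all controls, up to 15 genes particular to TBX3 and 6 moved only by the other plasmids in each direction, genes named by the study, and the 4 largest called changes of each list. Another 42 named genes were chosen after their values were seen, among them BAG3, HSPB1, CHORDC1, HSPH1, JUN, MYC, EP300, KMT2E, SQLE and FN1. The alternatives were other scalings, DESeq2 1.42.0, other filters, an FDR of 0.05, EV or Ctl alone, 1 fit of all libraries, a replicate block and leaving out each library. Corrections for exon length and GC content were added after seeing the data. Promoters are from RefSeq (GRCh38.p14), searched for motifs on both strands. Results for a few genes are not reported here.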

Additional observations from a re-analysis of the deposited data

Results flagged for a closer look

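For 6 of the 110 genes named, 1 of the 6 control libraries stood far from the other 5 on the log2 CPM scale, where chance flags about 1 in 20 such groups, or 5.5 genes. EV replicate 3 was the library in 4 of them: CHORDC1 was at 37.8 CPM there against 42.6 to 45.0 CPM in the other controls, HSP90AA1 at 1654 CPM against 1896 to 2054 CPM, EP300 at 34.5 CPM against 40.9 to 42.5 CPM, and SETD2 at 74.5 CPM against 79.3 to 81.7 CPM. HSPA8 was at 1872 CPM in Ctl replicate 1 against 2028 to 2091 CPM. TBX4 had 0.0992 CPM, a single count, in Ctl replicate 3 and none in the other controls. Without EV replicate 3, the rises of CHORDC1, EP300 and SETD2 with TBX3 still passed the test.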

How the results depend on the processing

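Scaling by library totals left 35 genes called against controls, 164 against TBX2, 110 against TBX4, 34 against TBX5, 4 particular to TBX3 and 1 moved only by the other plasmids. The most counted gene took very unequal shares of the libraries. With totals counted without it, 117 genes (89 higher, 28 lower) were particular. At an FDR of 0.05 the numbers were 943 for TBX4, 739 for TBX5, 120 particular and 56 moved only by the others. Leaving out each library in turn gave 1545 to 2261 genes against controls, 1821 to 2592 against TBX2, 857 to 1771 against TBX4, 781 to 1229 against TBX5, 116 to 190 particular and 56 to 96 moved only by the others. The particular count was 116 without TBX3 replicate 2, the TBX4 count 1000 and 857 without TBX3 replicates 1 and 2 and 915 and 903 without TBX4 replicates 1 and 2, and 56 were moved only by the others without TBX5 replicate 3. Fewer samples entered the fits that left out a library. The cause of the differences in these numbers was not tested.

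Libraries with the same letter did not deviate together (mean r of 0.0071, from -0.070 to 0.16 over 9 pairs, against -0.0035 for other letters). With a replicate block 1314 genes were higher and 1050 lower against controls, and 166 and 19 were particular. DESeq2 gave 949 and 801, and 130 and 13. Of the 89 named genes called against controls, 23 kept their call with library totals, 81 of 86 with DESeq2, 76 against EV alone, 83 against Ctl alone, 89 with the block and 79 to 88 when a library was left out. None turned its direction. Per-library totals of 7365221 to 11743179 counts limit genes of low level most.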

Other observations

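None of the 13 messenger RNAs of the mitochondrial genome, which encode subunits of the respiratory chain, passed the edgeR test with TBX3 (median log2 fold change 0.05), but 8 were called higher without TBX3 replicate 3. Among mitochondrial ribosomal protein genes 13 of 74 were down-regulated with TBX3 (17.6%, against 6.4% of all tested genes). With TBX2, TBX4 and TBX5 it was 20, 5 and 11, where 15.6%, 6.07% and 6.12% of all tested genes were down-regulated. In that list 3 were called lower against Ctl alone, 5 without TBX3 replicate 1, 6 without TBX3 replicate 2, and 26 with library totals counted without the most counted gene.

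Genes of hypoxia and glycolysis had 12 of 31 down-regulated and 4 up-regulated with TBX3 (51.6% called, against 14.9% of all tested genes). TBX2, TBX4 and TBX5 down-regulated 14, 1 and 7 of this list, and 15.6%, 6.07% and 6.12% of all tested genes. Matrix and adhesion genes had 14 of 42 down-regulated and 1 up-regulated with TBX3 (35.7% called, against 14.9% of all tested genes). With TBX2, TBX4 and TBX5, 17, 9 and 7 of them were down-regulated and 8, 2 and 8 up-regulated. In either direction 9 were called with TBX3 against Ctl alone or without TBX3 replicate 2 or 3. Genes of MHC class I antigen presentation had 1 of 18 up-regulated and 1 down-regulated with TBX3 (11.1%, against 14.9% of all tested genes). TBX2, TBX4 and TBX5 up-regulated 11, 6 and 5 of these, and 17%, 6.97% and 6.55% of all tested genes.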
